A study of Mus musculus with 16 samples.

Results

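Cardiac transcripts of AKIP1-overexpressing mice were compared with those of wild-type littermates after a sham operation, so that the baseline effect of the transgene could be read in hearts without ischemic injury. The comparison took the arrays titled TG_Sham (AKIP1 overexpression, 4 mice) and WT_Sham (wild-type littermates, 4 mice), 8 of the 16 arrays of the study. The other 8 arrays came from mice of the same genotypes after ischemia/reperfusion (I/R) and are used here as a second reading of the same genotype contrast (TG_IR and WT_IR, 4 mice each). All mice were of the C57BL/6J strain, the tissue was labelled cardiac, and 1 Illumina bead array was run per mouse. The sources used here do not state the age or sex of the mice, the part of the heart taken, the promoter of the transgene or the number of transgenic lines.

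AKIP1, A kinase interacting protein 1, binds the catalytic subunit of protein kinase A (PKA) and has been described to favour its retention in the nucleus. It has also been described to bind the p65 subunit of the transcription factor NF-kappaB. In heart muscle PKA transmits the beta-adrenergic signal, phosphorylating calcium channels, phospholamban and troponin I, and so sets the force and speed of contraction. A sham operation repeats the surgery without interrupting coronary flow, so it carries the effects of anaesthesia and wounding but not those of ischemia.

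Each array held 25697 probes, given as intensities on a linear scale. Probes could not be matched to genes here. Akip1 itself was therefore not followed, markers of heart muscle and other cell types were not read, and lists of PKA, NF-kappaB, antioxidant, mitochondrial and stress genes gave no counts. Probes are named by their identifiers. Medians of the sham arrays lay between 178.8 and 178.9, and 65.7% of the probes (16893) had a mean intensity no more than 10% above that of the median probe. A probe was called bright when its mean log2 intensity over the 8 sham arrays was at least 1 above that of the median probe, which is a mean intensity of at least 356.2. There were 3452 bright probes (13.4%).

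The arrays lay on 2 slides, each with 2 TG_Sham and 2 WT_Sham arrays. Both TG_Sham arrays of slide 1 (replicates 1 and 2) stood apart from the other 6 sham arrays. On the first principal component, which held 38.3% of the variance of the sham arrays, they lay at −12.5 and −9.29, whereas the TG_Sham arrays of slide 2 lay at 1.04 and 1.86 and the WT_Sham arrays between 4.17 and 5.42. Their correlations with the other 6 sham arrays ran from 0.990 to 0.993 across probes, against 0.993 to 0.997 among those 6. WT_Sham replicate 4 lay apart on the second component, which held 17.4% of the variance, at 10.1 against −5.60 to 1.11 for the others. The lowest correlation among those 6 (0.993) was that of WT_Sham replicates 3 and 4, and it lay within the range of the slide 1 transgenic arrays. Results are given over both slides, by slide, and with the transgenic arrays of slide 2 alone.

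After sham, transgenic and wild-type hearts differed in 4 of 25697 probes (0.0156%), 1 higher (0.00389%) and 3 lower (0.0117%) in transgenic hearts. The test was limma's moderated test on log2 intensities of the 8 arrays, with Benjamini-Hochberg adjustment over all probes and a threshold of 0.05. The count was 2 to 20 when single arrays were left out (2 without TG_Sham replicate 2 or without WT_Sham replicate 2, 3 or 4, and 20 without TG_Sham replicate 4) and 1 without the intensity trend of the variance. The largest difference was that of ILMN_2729762, which was 25.3-fold higher in transgenic hearts. The others, ILMN_1215469, ILMN_2665552 and ILMN_2655795, were 2.27-fold, 1.56-fold and 1.40-fold lower. The lowest reading on each of the 16 arrays was between 161.5 and 163.4, so the intensities still hold array background and these folds understate the change of probes that are dim in either group.

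ILMN_2729762 read 214.2, 278.9, 303.7 and 223.5 in the WT_Sham hearts, above the array medians but below the limit for bright probes of 356.2. In the TG_Sham hearts it read 7322, 4361, 6845 and 7607. The lowest transgenic heart was thus far above the highest wild-type heart, and the probe reached the limit for bright probes through the transgenic hearts. On the log2 scale the groups stood at 12.64 ± 0.37 and 7.98 ± 0.24 (SD, n = 4 each), a difference of 4.66 (SE 0.16, 95% interval 4.33 to 4.99, adjusted p = 2.29e-11). The difference was 4.53 on slide 1 and 4.79 on slide 2. Fitted on 1 slide at a time, it passed on each (adjusted p = 5.21e-12 and 1.77e-12 in limma). With normexp background correction it came to 5.55. Whether ILMN_2729762 reads the transgene was not tested.

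ILMN_1215469 was among the brighter probes of wild-type hearts, at 5056, 5094, 4995 and 4900. The 4 wild-type readings spanned a log2 SD of 0.02. Transgenic hearts read 1649, 2731, 2126 and 2490, all below the wild-type range and more scattered, with a log2 SD of 0.32. The log2 difference was −1.18 (SE 0.12, 95% interval −1.43 to −0.93, adjusted p = 0.000311). It was −1.26 on slide 1 and −1.10 on slide 2, and it passed on each slide alone (adjusted p = 7.96e-05 and 0.000146 in limma).

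ILMN_2665552 read 696.6, 691.3, 700.2 and 717.1 in wild-type hearts and 378.4, 428.8, 464.0 and 536.2 in transgenic hearts. The wild-type readings again lay close together and the groups did not overlap. The log2 difference was −0.65 (SE 0.09, adjusted p = 0.0137), with −0.78 on slide 1 and −0.51 on slide 2. On slide 2 alone it did not pass (adjusted p = 0.535), and it also missed the threshold without TG_Sham replicate 2 (adjusted p = 0.0652) and without any single WT_Sham array (adjusted p = 0.0611 to 0.0754).

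ILMN_2655795 read 366.1, 435.7, 438.8 and 406.1 in wild-type hearts and 268.4, 320.6, 262.1 and 324.5 in transgenic hearts. The groups did not overlap, and the probe lay just under the limit for bright probes. Its log2 difference was −0.49 (SE 0.08, adjusted p = 0.0419), with −0.45 on slide 1 and −0.53 on slide 2. This call was lost in 13 of the 20 alternatives it entered, against 9 of 21 for ILMN_2665552, 1 of 21 for ILMN_1215469 and 0 of 21 for ILMN_2729762.

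**Figure D1:**
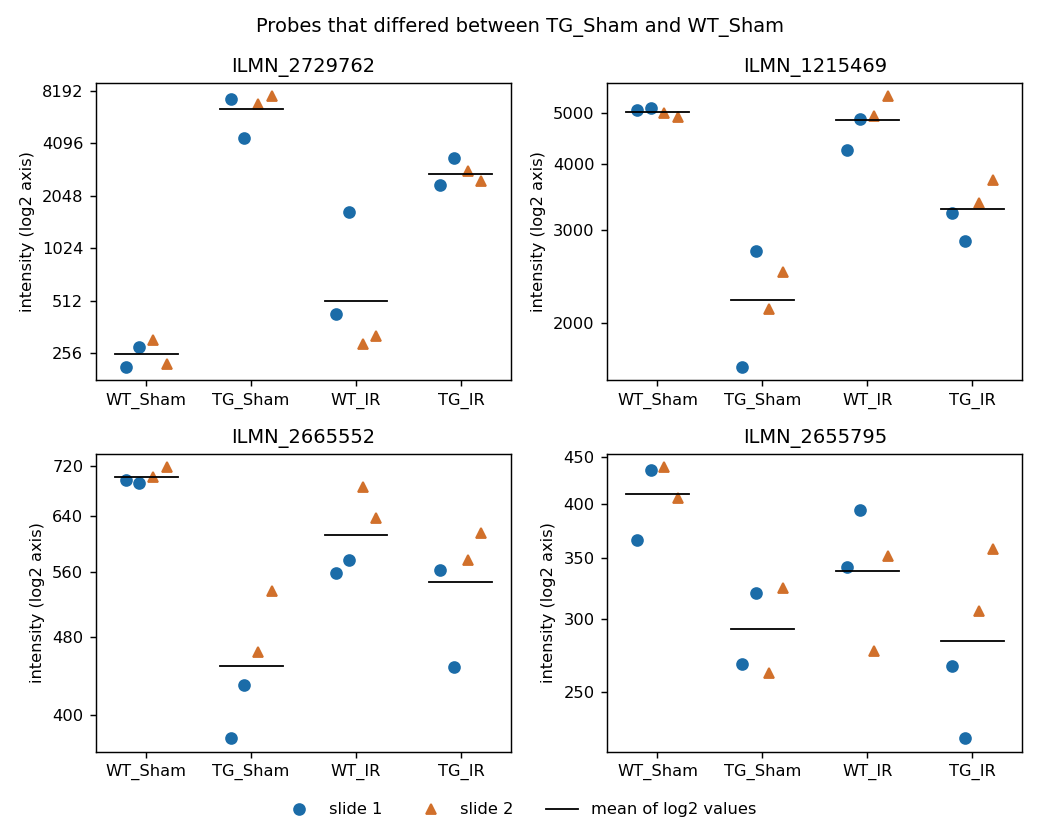
Deposited intensity (log2 axis) of the 4 called probes in each heart, for WT_Sham, TG_Sham, WT_IR and TG_IR (4 hearts each); circles are slide 1, triangles slide 2, and bars are means of the log2 values. After sham no transgenic heart reaches the wild-type range in any of the 4 probes, and for ILMN_2729762 the transgenic hearts read 4361 to 7607 against 214.2 to 303.7.

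Among bright probes short of the threshold whose groups did not overlap, the higher probe with the smallest p was ILMN_2716098. It read 354.0, 347.2, 352.1 and 328.1 in wild-type hearts and 572.5, 546.1, 407.6 and 434.8 in transgenic hearts. Both slide 1 readings of the transgenic hearts were the higher ones. That no transgenic heart overlapped the wild-type hearts was a condition of the choice. Its log2 difference was 0.49 (SE 0.09, adjusted p = 0.131), with 0.67 on slide 1 and 0.31 on slide 2. With slide as a block it passed (adjusted p = 0.0221 in limma).

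Over all probes, 1866 (7.26%) had an unadjusted p under 0.05, 954 higher (3.71%) and 912 lower (3.55%) in transgenic hearts. Among bright probes it was 357 (10.3%). The groups did not overlap in 985 probes (3.83%), and in 176 of the bright probes (5.1%). Differences of at least 1 on the log2 scale were seen in 4 probes (0.0156%), of which ILMN_2729762 and ILMN_1215469 were called. The other two, ILMN_2594926 (log2 difference 1.82, SE 0.55, adjusted p = 0.476) and ILMN_2878542 (1.01, SE 0.25, adjusted p = 0.367), were named after their values were seen. Their differences came from slide 1: ILMN_2594926 differed by 3.61 there and by 0.02 on slide 2, and ILMN_2878542 by 1.73 and 0.29.

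The sham arrays could have shown moderate differences of bright probes. With 4 calls made, a further probe needed an unadjusted p of 9.73e-06 to be called. For the median bright probe this took a log2 difference of 0.50, or 1.41-fold, and for 80% of the bright probes it took between 0.36 and 0.68 (10th to 90th percentile). A true difference of 0.59 log2 would have been called with a probability of 80% in the median bright probe, and one of 0.80 log2 (1.74-fold) at the 90th percentile. For 96.7% of the bright probes (3337), a 2-fold difference of deposited intensity would have been called at least with that probability. Intensities still hold array background, so a 2-fold change of transcript gives a smaller fold of intensity, above all in the less bright of these probes. The share of bright probes for 2-fold changes of transcript was not estimated.

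Brightness set what could be seen. From 1 to under 2 log2 above the median probe, 1925 probes needed a difference of 0.44 in the median. From 2 to under 4, 1202 probes needed 0.57, and from 4 upwards, 325 probes needed 0.47. The dimmest 16893 probes needed 0.10, but their intensities consist largely of background, so a small log2 difference there can stand for a large change of transcript and a missing one says little. The observed differences of bright probes had a median size of 0.06 log2 and a 99th percentile of 0.43.

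**Figure D2:**
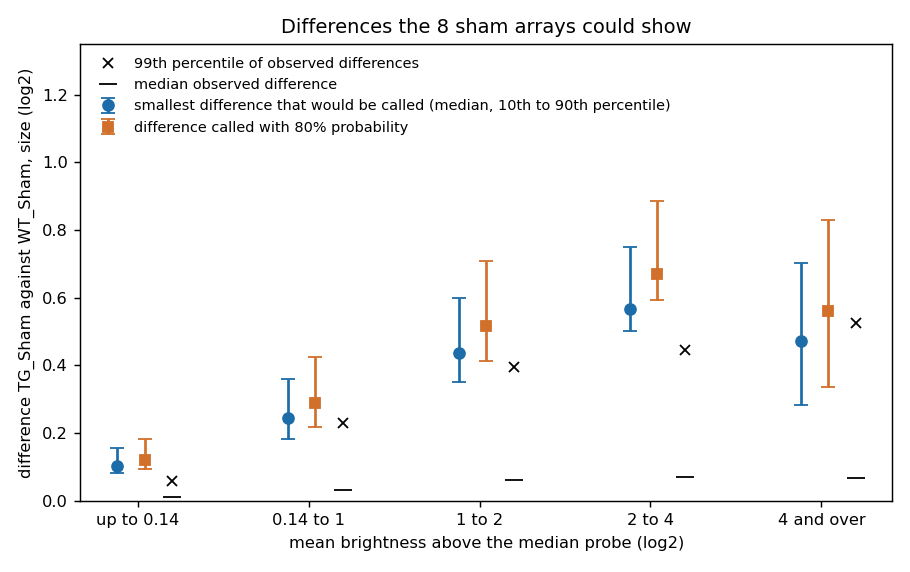
Size of a TG_Sham against WT_Sham difference (log2) by mean brightness above the median probe (log2, 5 classes). Circles and squares give the smallest difference that would have been called and the difference called with 80% probability (median over probes, bars from the 10th to the 90th percentile), and marks give the median and the 99th percentile of the observed differences. In the 4 dimmer classes the 99th percentile lies below the median callable difference, as in the class from 2 to 4, where it is 0.45 against 0.57, whereas in the brightest class it is 0.53 against 0.47.

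The intervals give the same limits in another form. The 95% interval of the genotype difference had a median half-width of 0.17 log2 in bright probes and of 0.23 at the 90th percentile. It lay within ±0.5 log2 for 3308 bright probes (95.8%) and within ±1 log2 for 3436 (99.5%), leaving 16 bright probes whose interval reached past 1 log2, among them ILMN_2729762 and ILMN_1215469. A true difference of 0.5 log2 would have been called with a probability of at least 80% in 937 bright probes (27.1%). After I/R the same probes were measured less tightly. Their median SE of the genotype difference was 0.131 log2, against 0.0795 after sham.

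The slides were then read as separate estimates, since they shared no arrays. A probe was said to hold on both slides when transgenic and wild-type arrays did not overlap on either slide and differed by at least 0.5 log2 in the same direction on each. On slide 1, 122 probes met the size and the no-overlap condition (0.475%), and on slide 2, 15 probes did (0.0584%). They held on both slides for 4 probes (0.0156%), 1 higher (0.00389%) and 3 lower (0.0117%) in transgenic hearts. For a further 2 probes (0.00778%) both slides met the conditions with opposite signs.

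The probes that held on both slides were ILMN_2729762, ILMN_1215469, ILMN_2665552 and ILMN_1223147. ILMN_2655795, though called, had a slide 1 difference short of the size asked. ILMN_1223147 held but was not called. It read 2136, 2569, 2854 and 2246 in wild-type hearts and 1232, 1896, 1749 and 1828 in transgenic hearts. The groups did not overlap, with differences of −0.62 on slide 1 and −0.50 on slide 2 and an overall log2 difference of −0.56 (SE 0.13, adjusted p = 0.324).

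With 1 log2 asked on each slide, 2 probes held (ILMN_2729762 and ILMN_1215469) and 1 was opposite. With 0.25 log2 asked, 34 probes held (0.132%), 17 in each direction, and 21 were opposite (0.0817%). Over all probes, the sign of the difference was the same on both slides in 49.9%, and in 50.6% of the bright probes. Pearson's r between the slides was 0.217 over 3452 bright probes and 0.0329 over the 3449 bright probes that were not called. Both are descriptions across probes, which share their arrays and are not independent.

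Probes chosen on slide 1 did not carry their direction to slide 2. The 122 probes that met the conditions on slide 1 had a median size of 0.62 log2 there. On slide 2, 61 of them (50%) had the same sign, with a median of 0.00 in the slide 1 direction, and 4 reached 0.5 log2 in that direction against 2 in the opposite one. Of the 15 probes chosen on slide 2, 12 had the same sign on slide 1, with a median of 0.34 log2 in the slide 2 direction.

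**Figure D3:**
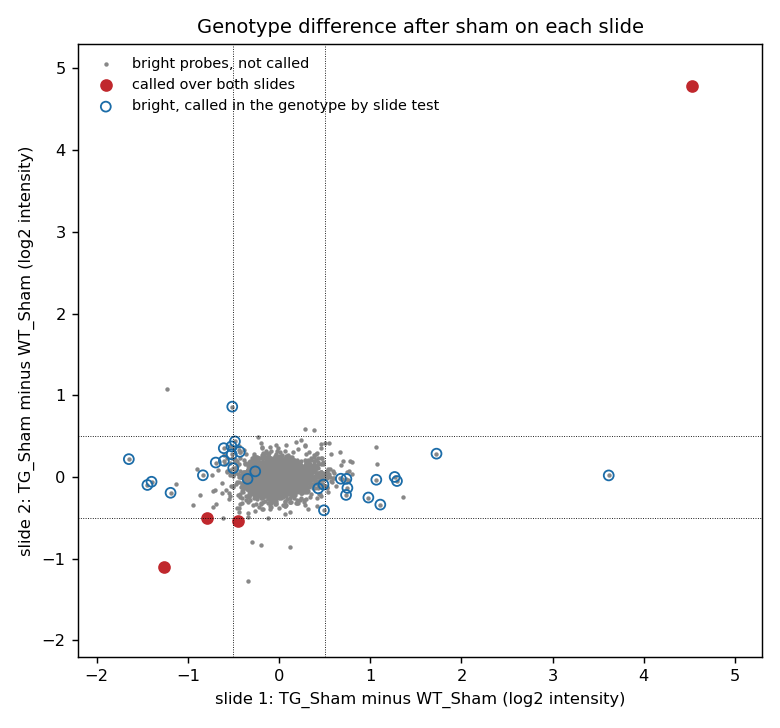
Genotype difference after sham (TG_Sham minus WT_Sham, log2 intensity) on slide 1 (x axis) and slide 2 (y axis) for the 3452 bright probes and the 4 called probes; each axis compares 2 with 2 hearts, and dotted lines mark ±0.5. ILMN_2729762 lies at the upper right (4.53 and 4.79), while many probes with large slide 1 differences, such as ILMN_2594926 at 3.61 and 0.02, lie near 0 on slide 2.

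Fitted on 1 slide at a time with limma, 470 probes differed between genotypes on slide 1 (1.83%), 293 higher and 177 lower in transgenic hearts, and 2 differed on slide 2 (0.00778%). ILMN_2729762 and ILMN_1215469 were called on both. At an unadjusted p under 0.05 there were 2755 and 1110 probes. These fits compare 2 with 2 mice and estimate the spread from the pairs on the same slide, so the calls on slide 1 apply to those 4 hearts.

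The difference between the slides was itself tested by a genotype by slide term, fitted with limma on the 8 sham arrays. It passed for 79 probes (0.307%), of which 30 were bright (2 of these only through the slide 1 transgenic arrays), and 1891 probes (7.36%) had an unadjusted p under 0.05. The term, slide 2 minus slide 1, was below 0 in 54 (0.21%) and above 0 in 25 (0.0973%). For 78 of the 79 the genotype difference was larger in size on slide 1. In 76 the TG_Sham arrays of the slides differed more than the WT_Sham arrays did, and in 74 both TG_Sham arrays of slide 1 lay beyond all other 6 sham arrays. Both WT_Sham arrays of 1 slide, with either slide counted, lay apart from the other 6 in 33. The 79 probes were chosen by this term on these same arrays, which favours probes with a pair lying apart. The share over all probes was not counted, so these counts only describe the chosen probes. None of the 4 called probes passed this test (adjusted p = 0.889, 0.925, 0.707 and 0.936 in the order given above). Their smallest unadjusted p was 0.0664, for ILMN_2665552. They were chosen on these same arrays by a fit in which a difference between slides adds to the spread. That choice favours probes without such a difference, so no agreement of the slides is concluded from it. The count moved to 228 without WT_Sham replicate 3, to 45 without TG_Sham replicate 3 and to 51 without TG_Sham replicate 4.

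Within TG_Sham, 90 probes differed by at least 0.5 log2 between slides without overlap (0.35%), 56 higher and 34 lower on slide 1. Within WT_Sham, 7 did (0.0272%). Differences of at least 1 log2 numbered 12 in TG_Sham (0.0467%), 9 higher and 3 lower on slide 1, and 1 in WT_Sham (0.00389%). Whether these differences belong to the slide, to a pair of hearts or to tissue sampling cannot be told apart, as 2 transgenic sham hearts were run on each slide.

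The bright probe with the largest such difference, ILMN_2594926, read 2243 and 2029 in the TG_Sham hearts of slide 1 and 269.3 and 237.6 in those of slide 2. In WT_Sham hearts it read 174.9 and 173.3 on slide 1 and 257.8 and 241.5 on slide 2. The probe passed the limit for bright probes only through the pair of slide 1 transgenic hearts, and was below it in the other 6. These transgenic hearts were far above every other sham heart, and the wild-type hearts of slide 1 were the lowest. The genotype difference changed by −3.59 log2 from slide 1 to slide 2 (SE 0.12, adjusted p = 3.35e-12). After I/R the probe was high on TG_IR replicate 2 (1036) and the array labelled WT_IR replicate 2 (674.3), both on slide 1, and between 172.3 and 276.3 on the other 6 I/R arrays.

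ILMN_3161547 read 11805 and 20400 in the TG_Sham hearts of slide 1 and 5499 and 4249 in those of slide 2, against 4725, 7785, 7650 and 4272 in wild-type hearts. Both slide 1 hearts exceeded every other sham heart. The genotype by slide term of −1.60 log2 did not pass (SE 0.35, adjusted p = 0.0702). In the I/R hearts the probe read 10220 to 21477 in wild type and 16028 to 21407 in transgenic.

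ILMN_2625893 and ILMN_2649810 lay at the other end. ILMN_2625893 read 534.1 and 1018 in the TG_Sham hearts of slide 1, 2705 and 2264 in those of slide 2, and 1859 to 2574 in wild-type sham hearts. ILMN_2649810 read 1904 and 3616 in the TG_Sham hearts of slide 1, 6243 and 7520 in those of slide 2, and 6644 to 7451 in wild-type sham hearts. The low readings of both probes were those of the transgenic hearts of slide 1, and those of slide 2 were beside wild type. Their genotype by slide terms were 1.87 log2 (SE 0.30, adjusted p = 0.00676) and 1.34 log2 (SE 0.26, adjusted p = 0.0310).

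**Figure D4:**
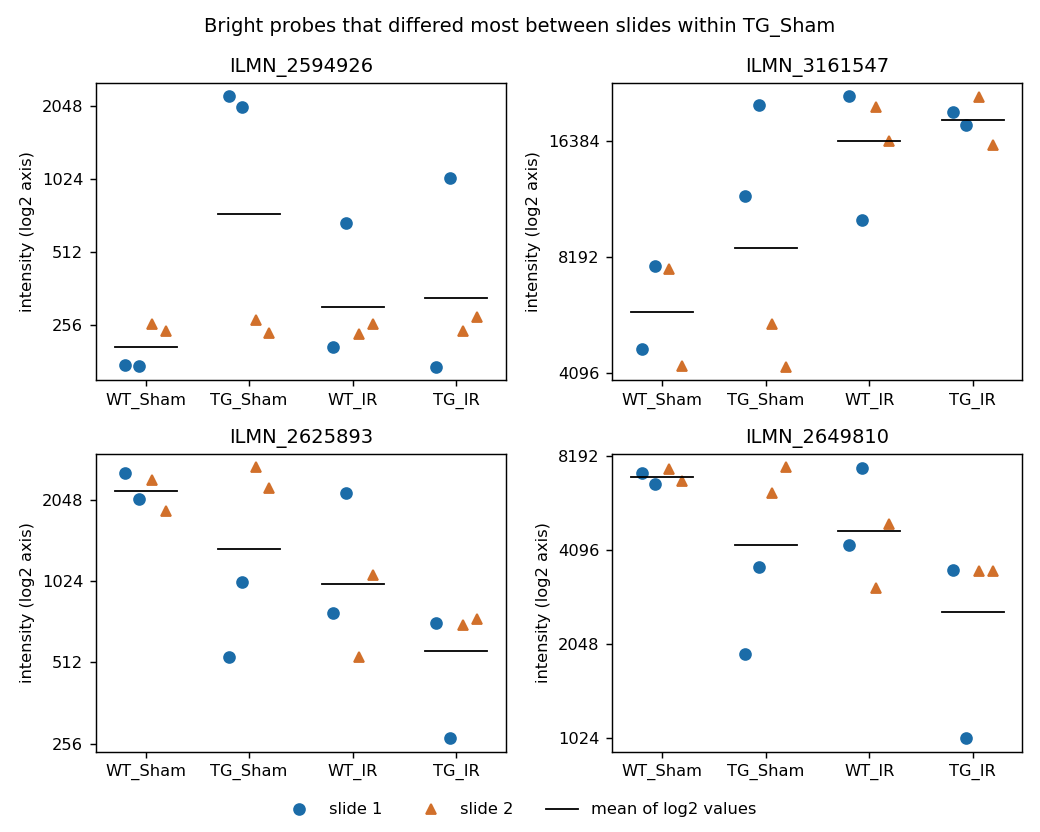
Deposited intensity (log2 axis) of the 4 bright probes that differed most between slides within TG_Sham, in each heart of WT_Sham, TG_Sham, WT_IR and TG_IR (4 hearts each); circles are slide 1, triangles slide 2, and bars are means of the log2 values. The TG_Sham hearts of slide 1 lie away from all other sham hearts in each probe, as for ILMN_2594926 at 2243 and 2029 against 173.3 to 269.3.

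With the TG_Sham hearts of slide 2 alone set against the 4 WT_Sham hearts, 2 probes were called by limma (0.00778%), with 1162 at an unadjusted p under 0.05. They were ILMN_2729762 (log2 difference 4.84, SE 0.13, adjusted p = 1.33e-13) and ILMN_1215469 (−1.12, SE 0.08, adjusted p = 2.75e-06). ILMN_2665552 and ILMN_2655795 kept differences of −0.49 and −0.49 but did not pass (adjusted p = 0.138 each). With the intensity trend in the fit, the baseline differences that passed whether or not the slide 1 transgenic hearts were included were thus those of 2 probes. The fit without these hearts was chosen after seeing the data and shares its other arrays with the main test.

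The I/R hearts gave a second reading of the genotype contrast in other mice. In limma's test 0 of 25697 probes differed between TG_IR and WT_IR (0%), with 994 at an unadjusted p under 0.05 (3.87%) and no overlap between the groups in 658 (2.56%). To be called there, the median bright probe needed a log2 difference of 1.11, against 0.50 after sham. Part of this gap is the threshold, since with 0 calls made a smaller unadjusted p was needed than after sham. The median SE was 0.131 log2, against 0.0795. For ILMN_2729762 transgenic I/R hearts read 2367, 3365, 2827 and 2495, and wild-type I/R hearts read 430.1, 1659, 290.4 and 323.1. The groups did not overlap, although the array labelled WT_IR replicate 2 stood above the other wild-type arrays. That array also read 7482 for ILMN_2649810 and 2182 for ILMN_2625893, beside the WT_Sham hearts and above the other I/R hearts. For some other named probes it lay outside the WT_Sham range. It read 5112 for ILMN_1259322 (WT_Sham 1358 to 3650) and 1899 for ILMN_3139875 (WT_Sham 627.2 to 1259). The reason was not tested. The log2 difference of ILMN_2729762 was 2.43 (SE 0.44, unadjusted p = 0.000119 and adjusted p = 0.996 in limma). Without the array labelled WT_IR replicate 2 it was 3.00 and the 1 probe called (adjusted p = 4.58e-06 in limma). That array held the wild-type reading nearest the transgenic hearts, so leaving it out by itself widens the difference and lowers the spread. The p-value is thus no separate support. Without any other single I/R array 0 probes were called.

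ILMN_1215469 read 3224, 2853, 3371 and 3727 in transgenic and 4245, 4875, 4935 and 5376 in wild-type I/R hearts, again without overlap. Its log2 difference was −0.56 (SE 0.13, unadjusted p = 0.000865 and adjusted p = 0.996 in limma). For ILMN_2665552 and ILMN_2655795 the differences after I/R were −0.16 (SE 0.13) and −0.25 (SE 0.13), and the groups overlapped. In limma's test their unadjusted p was 0.219 and 0.0850, each with an adjusted p of 0.996. All 4 probes had the same sign as after sham. Over all bright probes, which were not chosen for their difference, 60.5% had the same sign after sham and after I/R.

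Whether the genotype difference itself changed with surgery was tested by a genotype by surgery term on all 16 arrays. In limma's test 0 probes passed (0%), with 1117 at an unadjusted p under 0.05 (4.35%) and a smallest adjusted p of 0.864. The term was −2.23 log2 for ILMN_2729762 (SE 0.52), 0.62 for ILMN_1215469 (SE 0.18), 0.48 for ILMN_2665552 (SE 0.16) and 0.24 for ILMN_2655795 (SE 0.17), each with an adjusted p of 0.999. Without the array labelled WT_IR replicate 2 the term of ILMN_2729762 was −1.66 log2, with an adjusted p of 0.0539. The 4 probes were chosen for their difference after sham, so a smaller difference in other mice is not read as a change with surgery.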

How the data were processed

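Intensities on a linear scale were deposited by the authors as a single table, 25697 probes on 16 arrays. Per the labels' protocols, RNA was extracted with TriReagent and labelled with the Illumina TotalPrep kit. The sources used here do not name the software, background correction, normalization or probe filters. Distributions of the arrays were nearly identical, so a change of total RNA cannot be seen. Groups came from the labels and slides from the sample numbers in the titles (1 to 8 and 9 to 16).

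Intensities were log2 transformed, without further normalization, and every probe was tested with limma 3.58.1 in R 4.3.3 (lmFit, eBayes with an intensity trend) on the 8 sham arrays. SE is limma's moderated standard error. The residual and prior degrees of freedom were 6 and 10.5. Callable differences are this SE times the t quantile needed, and those called with 80% probability use the noncentral t distribution. The I/R comparison used the 8 I/R arrays, and the interaction with surgery all 16. The fit was tested on simulated data. Precision is limited by 4 arrays per group.

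Members, lists and tests were chosen with earlier results of these data known. Because probes could not be matched to genes, the naming rule was kept to at most 2 probes per direction. It took called probes, those holding on both slides, and bright probes with the smallest p among those whose groups did not overlap. It also took bright probes with the largest difference between slides within a genotype. ILMN_1223147, ILMN_2878542 and the fourth called probe exceed it and were named after their values were seen. P-values set a difference against the spread between these mice, which limma moderates with the spread of the other probes. The alternatives tried were another background correction, normalization, variance model, set of arrays or of probes, slide as a block, and leaving out single arrays.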

Additional observations from a re-analysis of the deposited data

Results flagged for a closer look

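For every named probe and group of 4 arrays, the reading farthest from the rest was compared with the range of the group. Of 56 such comparisons 3 stood out, where chance gives about 1 in 20, or 2.8. On TG_IR replicate 2, ILMN_2625893 stood at 8.07 log2 against 9.46 to 9.53 on the other TG_IR arrays. On the same array, ILMN_2649810 stood at 10.00 log2 (9.999 before rounding) against 11.78 to 11.79. On TG_Sham replicate 1, ILMN_2738825 stood at 9.71 log2 against 11.07 to 11.33 on the other TG_Sham arrays.

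The genotype difference after sham differed between the slides in limma's test for 4 of the probes named for a difference between slides. From slide 1 to slide 2 it changed by −3.59 log2 for ILMN_2594926 (adjusted p = 3.35e-12), by 1.87 for ILMN_2625893 (adjusted p = 0.00676) and by 1.34 for ILMN_2649810 (adjusted p = 0.0310). For ILMN_2718330 it changed by 1.37 (adjusted p = 0.0202), from −0.51 on slide 1 to 0.86 on slide 2.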

How the results depend on the processing

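When single arrays were dropped, 2 to 20 probes were called after sham, 45 to 228 for genotype by slide, 0 to 1 after I/R and 0 to 0 for genotype by surgery. The count after sham was 2 without TG_Sham replicate 2 or WT_Sham replicate 2, 3 or 4, and 20 without TG_Sham replicate 4. It was 2 with all 16 arrays in the fit, on slide 2 alone and with the TG_Sham arrays of slide 2 only. It was 470 on slide 1 alone, 7 when slide entered as a block, 8 with a robust fit and 1 (ILMN_2729762) without the intensity trend. In the other alternatives that kept all 8 sham arrays it was 3 or 4. Probes holding on both slides numbered 34 at 0.25 log2, 2 at 1 log2 and 11 after normexp correction (offset 50), with 3 opposite. The genotype by slide test gave 20 without the trend and 15 among bright probes only. After I/R, 1 probe was called without the array labelled WT_IR replicate 2 and 7 on slide 2 alone.

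The smallest callable difference of the median bright probe was 0.485 to 0.603 log2 without each array in turn, 0.562 after normexp correction, 0.648 with all 16 arrays, 0.677 without the trend and 0.576 with the TG_Sham arrays of slide 2 only. It was 0.555 for probes at least 2 log2 above the median and 0.419 from 0.5 upwards.

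Signs turned in 15 cases. The sham difference of ILMN_3161547 was −0.24 on slide 2 and −0.28 with its TG_Sham arrays only, and that of ILMN_2625893 was 0.22 and 0.16. That of ILMN_2738825 was 1.08 and 0.24 there, and 0.30, 0.12 and 0.29 without TG_Sham replicate 1, WT_Sham replicate 1 and WT_Sham replicate 2 (−0.59 to 0.30 over all single arrays dropped). For ILMN_2718330 it was −0.51 on slide 1 and −0.082 without WT_Sham replicate 3 (up to 0.42 without another). The genotype by slide term of ILMN_3139875 was 0.34, 0.20 and 0.25 without TG_Sham replicate 2, WT_Sham replicate 2 and TG_Sham replicate 3 (from −0.62 without another). ILMN_2655795 differed by 0.084 after I/R on slide 2. Among the other alternatives for named probes, 454 changed neither sign nor call, 18 gained a call and 40 lost one. The cause was not tested.

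The fit with the transgenic sham arrays of slide 2 only, the count without the overlap condition (4) and the genotype by slide counts without single arrays were chosen after seeing the data. No paired analysis was possible because replicate numbers follow accession order here and link no array to one of another group. Dim probes limit what the arrays show.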

Other observations

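Wild-type sham hearts also held bright probes that differed between slides. ILMN_2738825 read 2900 and 4084 on slide 1 and 1763 and 658.4 on slide 2, against 840.2, 2570, 2417 and 2144 in transgenic sham hearts. Its genotype difference turned from −1.23 log2 on slide 1 to 1.08 on slide 2, and the genotype by slide term did not pass (2.31 log2, SE 0.55, adjusted p = 0.110). ILMN_2718330 read 1992 and 1380 in the wild-type hearts of slide 1 and 697.4 and 1044 in those of slide 2. These were the 2 probes that met the size and no-overlap conditions with opposite signs. ILMN_1259322 was highest in WT_Sham replicate 3 (3650, against 1358 to 1706 in the other wild-type sham hearts), and transgenic sham hearts read 623.6 to 2070. ILMN_3139875 read 627.2 to 1259 in wild-type and 423.9 to 1039 in transgenic sham hearts, and the groups overlapped.

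The difference between the TG_Sham hearts of slide 1 and slide 2 was set beside the I/R effect in wild-type hearts, which uses other arrays. Over 3452 bright probes Pearson's r was 0.399 and Spearman's rho 0.412. It was 0.375 without the array labelled WT_IR replicate 2. Of the 90 probes that differed by at least 0.5 log2 between slides within TG_Sham, 71 (78.9%) had the sign of the wild-type I/R effect, against 55.0% of all probes. Of the 69 bright probes among them 53 did (76.8%), against 64.2% of all bright probes. For the WT_Sham slides beside the I/R effect in transgenic hearts, r was 0.265 and rho 0.234 over bright probes. There 5 of 7 probes had the same sign (71.4%), all 7 being bright, against 59.2% of all bright probes. Whether the shares of the genotypes differ was not tested. These are descriptions across probes that share arrays, depth of signal and normalization.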
